A study of Mus musculus with 8 samples.

Results

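The data examined here are the counts of 10 genes that encode secreted antagonists of Wnt signalling in single-cell RNA sequencing (scRNA-seq) libraries of mouse bone stromal cells. The genes were taken by name, with no threshold on a measured value, by a list made when earlier results of these data were known. All 10 were found among the 28956 genes of the deposited tables and among the 26180 genes detected in at least 3 cells. They comprise 5 members of the secreted Frizzled-related family (Frzb, Sfrp1, Sfrp2, Sfrp4 and Sfrp5), Wif1, 3 members of the Dickkopf family (Dkk1, Dkk2 and Dkk3) and Sost. Wnt proteins are secreted ligands that bind Frizzled receptors and the co-receptors LRP5 and LRP6 and thereby stabilise beta-catenin, a pathway known for driving osteoblast formation and for governing the maturation of cartilage cells. Proteins of the Frizzled-related family and Wif1 bind Wnt ligands outside the cell, whereas Dkk1 and sclerostin, the product of Sost, bind LRP5 and LRP6 and keep the ligand from engaging them. Dkk2 binds the same co-receptors, and Dkk3 is a divergent relative whose part in Wnt signalling is less settled.

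Both groups were 12-week-old female C57BL/6 wild-type mice. In the Fracture group the left femur had been broken by bending when the mice were 10 weeks old. An intramedullary nail held the bone, and cells were taken on day 14. The Control group carried no fracture. In both groups, magnetic beads had removed cells bearing lineage markers, CD45 or CD117. The Chromium 3' kit was then used, in which a molecule of RNA is counted by its unique molecular identifier (UMI). The titles give 2 numbers per group, each with 2 replicates. These were read here as 2 cell preparations of 2 libraries each, so that n = 2 preparations per group. The labels do not say how many animals went into a preparation, and the p-values given below measure the spread between preparations, which may be technical.

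The 10 genes lie on separate stretches of the GRCm38 genome (GENCODE M21), and all are annotated as protein-coding. Frzb lies on chr2:80411970-80447625 (minus strand), Sfrp1 on chr8:23411502-23449632 (plus), Sfrp2 on chr3:83766321-83774316 (plus), Sfrp4 on chr13:19623104-19632994 (plus) and Sfrp5 on chr19:42197971-42202252 (minus). Wif1 lies on chr10:121033960-121100650 (plus), Dkk1 on chr19:30545863-30549665 (minus), Dkk2 on chr3:132085292-132180304 (plus), Dkk3 on chr7:112116017-112159057 (minus) and Sost on chr11:101962458-101967015 (minus). Sfrp2 overlaps the antisense gene Gm26771, and since the strand setting of the counting is not stated, reads of the pair cannot be told apart. The other 9 overlap no annotated gene.

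RefSeq promoter sequences (GRCm38.p6, from 250 bases before to 50 after the start of the gene) were found for 7 of the 10 genes, namely Frzb, Sfrp2, Sfrp5, Dkk1, Dkk2, Sost and Wif1. Those of Frzb and Sfrp5, which rose in the cartilage cells of fractured bone, and of Wif1 and Dkk1, which were lower in the chondrocyte-like and in the osteoblast-like cells of fractured bone, respectively, are shown as examples of genes that moved in opposite directions. They lie at chr2:80447347-80447646 (minus) for Frzb, chr19:42202203-42202502 (minus) for Sfrp5, chr10:121033754-121034053 (plus) for Wif1 and chr19:30549447-30549746 (minus) for Dkk1. The gene start used by RefSeq was that of the GENCODE span given above for Sfrp5 and lay inside that span for Frzb, Wif1 and Dkk1. Each is printed 5' to 3' on the strand of its gene, and capitals mark matches on either strand to 2 motifs, the TCF/LEF motif through which beta-catenin acts and the RUNX motif. The first was searched as CTTTG followed by 2 bases that are each A or T, and the second as TGTGGT.
Frzb: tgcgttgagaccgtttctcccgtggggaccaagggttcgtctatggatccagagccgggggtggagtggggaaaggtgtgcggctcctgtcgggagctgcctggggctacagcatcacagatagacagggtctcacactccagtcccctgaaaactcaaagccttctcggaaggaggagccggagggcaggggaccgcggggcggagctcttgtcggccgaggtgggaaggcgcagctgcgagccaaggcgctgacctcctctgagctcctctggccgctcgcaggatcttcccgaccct
Sfrp5: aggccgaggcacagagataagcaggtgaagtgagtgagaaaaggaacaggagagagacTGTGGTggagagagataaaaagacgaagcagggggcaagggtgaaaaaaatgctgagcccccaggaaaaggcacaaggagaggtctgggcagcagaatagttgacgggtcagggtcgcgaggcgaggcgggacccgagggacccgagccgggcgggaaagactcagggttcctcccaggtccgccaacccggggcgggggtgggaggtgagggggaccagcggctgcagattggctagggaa
Wif1: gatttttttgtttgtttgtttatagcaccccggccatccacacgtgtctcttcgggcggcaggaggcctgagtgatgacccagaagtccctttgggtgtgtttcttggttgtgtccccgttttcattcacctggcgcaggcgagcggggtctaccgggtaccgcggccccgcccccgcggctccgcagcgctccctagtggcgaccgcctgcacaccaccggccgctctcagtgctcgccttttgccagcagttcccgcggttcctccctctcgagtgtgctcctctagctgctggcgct
Dkk1: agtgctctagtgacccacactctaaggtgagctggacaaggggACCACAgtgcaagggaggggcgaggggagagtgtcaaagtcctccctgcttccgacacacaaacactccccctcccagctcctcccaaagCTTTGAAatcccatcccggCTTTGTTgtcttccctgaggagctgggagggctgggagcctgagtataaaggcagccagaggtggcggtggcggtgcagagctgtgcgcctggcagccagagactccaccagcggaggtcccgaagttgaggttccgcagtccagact
The Dkk1 promoter held 2 TCF/LEF matches and 1 RUNX match, the Sfrp5 promoter held 1 RUNX match, and the other 5 promoters held neither. Of all 32851 promoters of this length, 16.9% held a TCF/LEF match and 16.8% a RUNX match.

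The 8 libraries held 56543151 to 89126291 UMIs, and 45328 of 48903 barcodes were kept as cells. The kept cells had a median of 7711 UMIs in Control and 11351 in Fracture. The deposited tables reached barcodes of 1 to 3 UMIs in Control but held no barcode under 1929 UMIs in Fracture. The 2 libraries of a preparation shared 13 to 23 barcodes. Cells were clustered without the 10 genes and without other Wnt pathway genes, and clusters were named from lists of marker genes. This gave 16657 chondrocyte-like (cartilage), 6130 osteoblast-like (bone-forming), 6413 BMSC-like (bone mesenchymal stromal), 2070 fibroblast-like, 5490 endothelial-like and 1292 smooth muscle-like cells, together called the stroma here, and 7276 blood cells, of which 2935 were erythroid-like. The 10 chondrocyte markers summed to 101584 and 91599 CPM (counts per 1000000 UMIs of the class) in the chondrocyte-like cells of Control and to 107541 and 106782 CPM in Fracture. The 10 BMSC markers, in contrast, summed to 35021 and 36539.5 CPM in the BMSC-like cells of Control but to 2758 and 3400.4 CPM in Fracture. The BMSC-like cells of fractured bone thus carried little of the RNA that names the class. Other classes also had lower sums of their own markers in Fracture. Osteoblast-like cells held 107430 and 124248 CPM in Control and 46362.5 and 59534 CPM in Fracture. Fibroblast-like cells held 19127 and 20482 CPM against 7290 and 7450 CPM. Smooth muscle-like cells held 38084 and 37656 CPM against 19188.5 and 20537 CPM, and endothelial-like cells 8922 and 8642 CPM against 7150 and 7236 CPM. In the chondrocyte-like class, a cluster led by Serpina1 genes held 44.0% and 39.9% of the cells in Control and 17.4% in both Fracture preparations. All levels below are CPM within the pooled UMIs of a class in 1 preparation, in which fewer cells making a gene and less RNA per cell cannot be told apart.

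The 10 genes were spread unevenly over the classes. Among the stromal classes of Control, Frzb was highest in chondrocyte-like cells, Dkk1 in osteoblast-like cells, Sfrp1 and Sfrp2 in BMSC-like cells, Dkk2 in endothelial-like cells and Dkk3 in fibroblast-like cells. The preparations of the next class in the order did not overlap with these. The first place of 4 genes was shared. Sfrp4 in fibroblast-like (681 CPM) and BMSC-like cells (539 CPM), Sfrp5 in chondrocyte-like (35.0 CPM) and fibroblast-like cells (31.7 CPM), and Wif1 in BMSC-like (680 CPM) and fibroblast-like cells (375 CPM) had overlapping preparations, and so had Sost in chondrocyte-like (2.18 CPM) and osteoblast-like cells (1.14 CPM). In Fracture the first class was that of Control for 9 genes and no longer overlapped the next, with fibroblast-like cells first for Sfrp4, chondrocyte-like cells for Sfrp5 and BMSC-like cells for Wif1. Sost had no leading class there, since its preparations overlapped between osteoblast-like, endothelial-like, smooth muscle-like and chondrocyte-like cells. These orders are a description and were not tested.

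**Figure D1:**
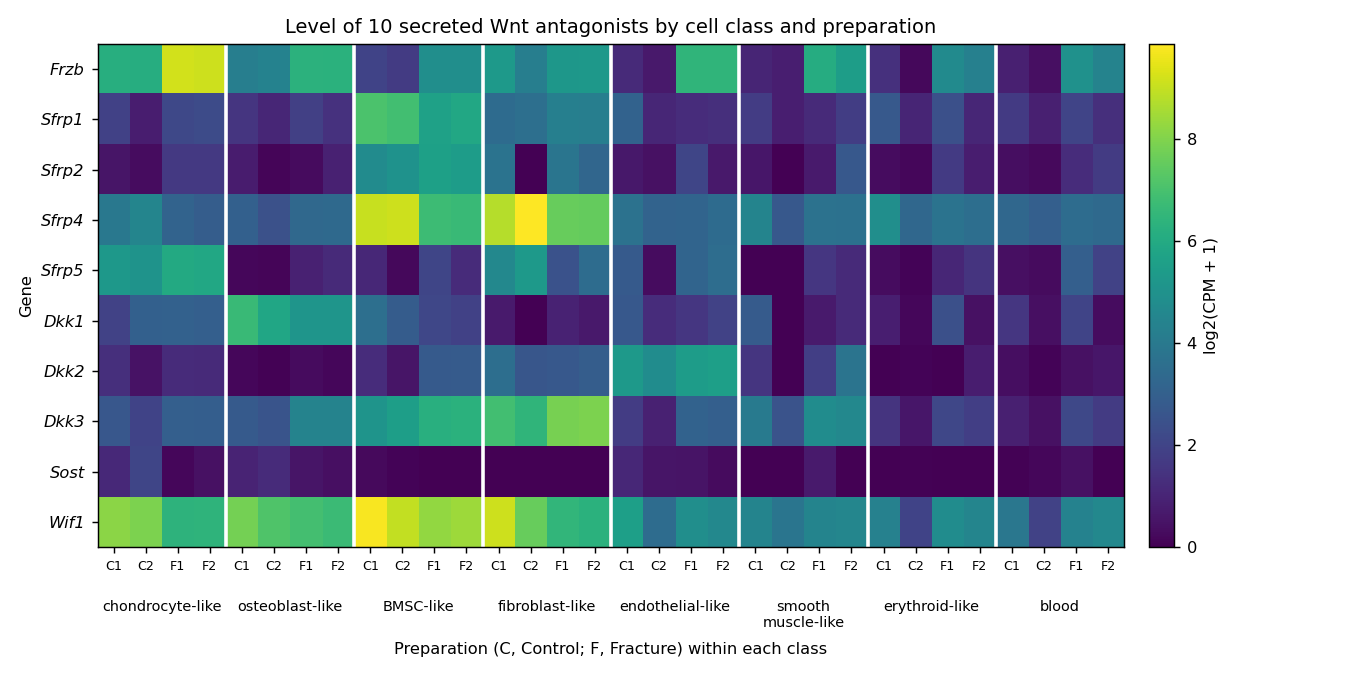
Level of each gene (rows) in 6 stromal classes, in erythroid-like cells and in all blood cells (blocks of columns), with 1 column for each preparation (C1 and C2, Control; F1 and F2, Fracture), on a colour scale of log2(CPM + 1). Frzb is brightest in the chondrocyte-like cells of Fracture (581 and 548 CPM), Dkk2 stands out in endothelial-like cells, and Sost is near the bottom of the scale throughout.

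Frzb, a Wnt-binding protein known from articular cartilage, lay higher in both Fracture preparations than in Control in 5 of the 6 classes. In endothelial-like and smooth muscle-like cells it reached the count filter only through Fracture. In BMSC-like cells its level in Fracture was below the highest blood level. In chondrocyte-like cells it measured 71.6 and 70.3 CPM in Control and 581 and 548 CPM in Fracture, so that the groups lay far apart and the preparations within a group close together. The change was 3.14 on the log2 scale (SE 0.05, edgeR quasi-likelihood test, adjusted p = 0.000958) and ran from 2.99 to 3.40 over 13 alternative analyses. After every cell had been thinned to 1000 UMIs, a Frzb UMI was found in 4.97% and 6.03% of chondrocyte-like cells in Control and in 34.1% and 32.1% in Fracture. It was found in at most 0.314% of erythroid-like cells in a Control preparation and 1.00% and 1.74% in Fracture. The median depth before thinning was 15109.5 and 12715 UMIs in the chondrocyte-like cells of Control and Fracture, and 6297 and 7057 UMIs in the erythroid-like cells. The share of chondrocyte-like cells differed by 27.6 percentage points (two-sided exact permutation test, p = 0.33, the smallest that 2 against 2 preparations allow). In osteoblast-like cells Frzb went from 17.8 and 19.7 CPM to 79.9 and 78.0 CPM, a change of 2.01 (SE 0.10, adjusted p = 0.00238). Fibroblast-like cells were the exception, at 39.2 and 17.7 CPM in Control and 36.4 and 37.5 CPM in Fracture. The groups overlapped there, and the change of 0.37 (SE 0.35, adjusted p = 0.497) did not pass the test.

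In endothelial-like, smooth muscle-like and BMSC-like cells the rise of Frzb came together with a higher sum of chondrocyte markers, whereas in osteoblast-like cells it did not. Endothelial-like cells measured 1.24 and 0.61 CPM of Frzb in Control (11 and 5 UMIs) and 86.4 and 86.7 CPM in Fracture (log2 change 6.63). No test is given here, since Frzb met the count filter in both preparations of Fracture but not in both of Control. Smooth muscle-like cells measured 1.05 and 0.79 CPM (4 and 1 UMIs) against 68.3 and 44.3 CPM (5.79). No test is given for them, since Frzb reached the count filter there only through Fracture. In the same endothelial-like cells the 10 chondrocyte markers summed to 2712 and 1227 CPM in Control and to 16065 and 16521 CPM in Fracture. In smooth muscle-like cells they summed to 1397 and 258 CPM in Control and to 10862 and 6656 CPM in Fracture. Set against those markers, Frzb held 0.46 and 0.50 UMIs per 1000 marker UMIs in the endothelial-like cells of Control and 5.38 and 5.25 in those of Fracture. The ratio was 0.71 and 0.77 in the chondrocyte-like cells of Control and 5.40 and 5.13 in those of Fracture. It was 0.75 and 3.07 in the smooth muscle-like cells of Control and 6.29 and 6.65 in those of Fracture, and 2.38 and 3.57 against 6.61 and 6.05 in BMSC-like cells. Blood cells held 0.85 and 0.31 CPM of Frzb in Control and 30.8 and 20.1 CPM in Fracture, with ratios of 0.94 and 2.08 against 5.83 and 4.97. BMSC-like cells went from 2.96 and 2.32 to 28.0 and 28.3 CPM (3.59, SE 0.16, adjusted p = 0.00142). Their level in Fracture was below the highest blood level, and their chondrocyte markers went from 1245 and 651 CPM to 4241 and 4686 CPM. In osteoblast-like cells the chondrocyte markers summed to 9588 and 8857 CPM in Control and to 7779 and 7829 CPM in Fracture while Frzb rose. Frzb per 1000 marker UMIs went there from 1.86 and 2.22 to 10.3 and 9.96. In fibroblast-like cells, where the change of Frzb did not pass, the markers summed to 15729 and 9945 CPM in Control and to 17787 and 16395 CPM in Fracture. The ratio there was 2.49 and 1.78 in Control and 2.04 and 2.29 in Fracture. The part of cartilage RNA in the rise of Frzb outside chondrocyte-like cells, osteoblast-like cells included, was not tested.

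**Figure D2:**
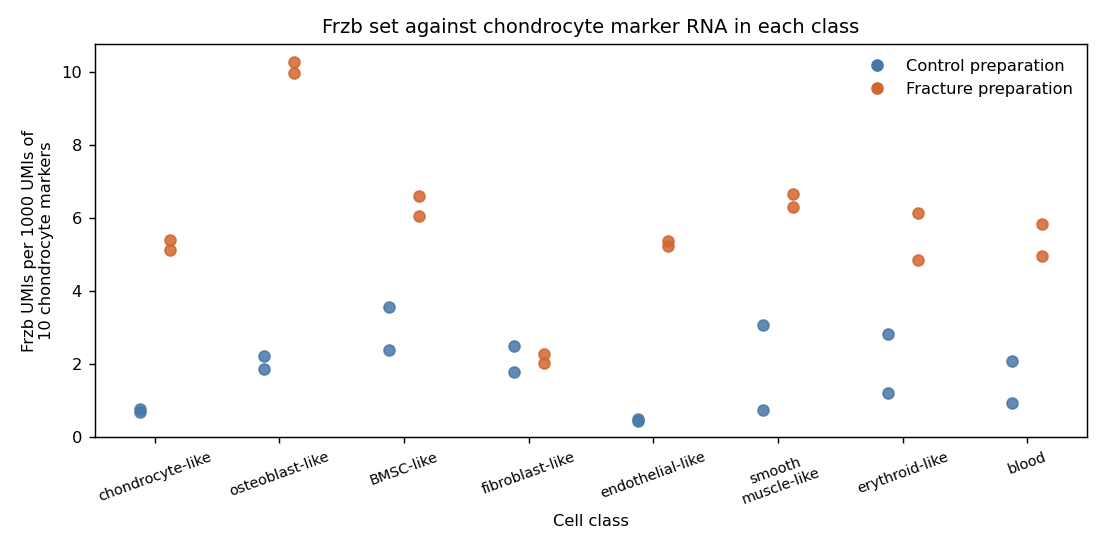
Frzb UMIs per 1000 UMIs of the 10 chondrocyte markers in each class (linear axis), with 1 point for each preparation. Endothelial-like cells (5.38 and 5.25 in Fracture) lie at the level of chondrocyte-like cells (5.40 and 5.13), whereas osteoblast-like cells lie higher (10.3 and 9.96) and the groups overlap in fibroblast-like cells.

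Chondrocyte-like cells were clustered again to see whether the rise of Frzb was found within narrower groups of cells. In each of the 7 subclasses that could be tested, both Fracture preparations lay above both Control preparations. No test is given for cycling cells, with 5 and 4 Frzb UMIs in Control, where the count filter was reached only through Fracture. In the other subclasses tested the rise passed the test. Prehypertrophic cells, which carry Ihh and Pth1r, had the highest level, 235 and 215 CPM in Control and 1144 and 1107 CPM in Fracture (log2 change 2.33, SE 0.09, adjusted p = 0.000216). Hypertrophic cells, marked by Col10a1, Spp1 and Mmp13, measured 143 and 124 CPM in Control and 784 and 715 CPM in Fracture (2.52, SE 0.17, adjusted p = 0.00201). The Serpina1-positive cells had the smallest rise, from 21.0 and 17.7 CPM to 39.98 and 48.7 CPM (1.30, SE 0.15, adjusted p = 0.0186). Cluster 0, which was led by Chrdl2 and carried no marker of a named subclass, rose from 66.9 and 76.5 CPM to 533 and 489 CPM (2.89). Cycling cells rose from 1.45 and 3.55 CPM to 131 and 149 CPM (6.20). Cluster 3, led by Myoc and Prg4 (lubricin, a protein of the joint surface), rose from 111 and 75.0 CPM to 238 and 233 CPM (1.44). The last of the 7, cluster 6, rose from 44.2 and 106 CPM to 388 and 391 CPM (2.61), but 43.5% of its cells were called doublets.

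Sfrp5, the second of the Frizzled-related genes with its highest levels in cartilage, rose in chondrocyte-like cells from 37.1 and 32.8 CPM to 62.7 and 59.8 CPM (log2 change 0.96, SE 0.07, adjusted p = 0.00346). The subclasses divided. In cluster 0 Sfrp5 went from 4.53 and 2.67 CPM to 88.8 and 83.6 CPM (4.47, SE 0.20, adjusted p = 0.000327). Cycling cells went from 6.66 and 17.7 CPM to 42.8 and 43.6 CPM (2.22, SE 0.36, adjusted p = 0.0211). Prehypertrophic cells measured 1.86 and 0 CPM in Control and 46.6 and 42.8 CPM in Fracture (5.21). No test is given for the prehypertrophic cells, where Sfrp5 reached the count filter only through Fracture. Cluster 3, which had the most Sfrp5 of all subclasses, measured 206 and 257 CPM in Control and 169 and 155 CPM in Fracture. It was lower in both preparations but did not pass the test (-0.39, SE 0.13, adjusted p = 0.0915). In fibroblast-like cells Sfrp5 was lower in Fracture, at 23.5 and 39.9 CPM against 4.66 and 10.1 CPM (-1.92, SE 0.44, adjusted p = 0.0469). The call was lost in cells of at least 3000 UMIs, without integration and at a finer clustering, where the change ran from -1.41 to -2.41. Osteoblast-like cells measured 0.13 and 0.10 CPM in Control and 0.87 and 1.24 CPM in Fracture (3.09). No test is given for them, since Sfrp5 reached the count filter there only through Fracture. All these levels lay below the highest blood level of the same group (0.33 and 6.85 CPM), and the part of RNA from other cells in them was not tested.

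Sfrp4, a Wnt-binding protein whose loss is known to thin cortical bone, had its largest amounts in fibroblast-like and BMSC-like cells and fell in both. In BMSC-like cells it measured 526 and 551 CPM in Control and 109 and 103 CPM in Fracture (log2 change -2.16, SE 0.08, adjusted p = 0.00114). The change ran from -2.61 to -1.64 and passed the test in all 13 alternatives. A Sfrp4 UMI was found in 33.8% and 32.6% of the thinned BMSC-like cells of Control and in 7.35% and 8.48% of those of Fracture. Fibroblast-like cells went from 429 and 933 CPM to 190 and 184 CPM (-1.76, SE 0.36, adjusted p = 0.0360), with the Control preparations far apart but both above the Fracture preparations. In chondrocyte-like cells the level was 14.6 and 21.4 CPM in Control and 7.78 and 6.51 CPM in Fracture (-1.18, SE 0.22, adjusted p = 0.0210). These levels lay below the highest blood levels of 28.1 and 12.5 CPM, and the call was lost in cells of at least 3000 UMIs (-0.86), without integration (-0.54) and at the finer clustering (-0.45). Hypertrophic cells stood apart from that low level, at 164 and 187 CPM in Control and 23.3 and 18.1 CPM in Fracture (-3.03, SE 0.16, adjusted p = 0.00120).

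Sfrp1, known as an inhibitor of osteoblast formation, and Sfrp2 both had their highest levels in BMSC-like cells but moved apart. Sfrp1 went from 135 and 116 CPM to 49.7 and 59.9 CPM (log2 change -1.01, SE 0.14, adjusted p = 0.00561) and remained past the test in all 13 alternatives, from -1.63 to -0.54. Sfrp2 went from 25.9 and 31.5 CPM to 47.7 and 42.8 CPM (0.84, SE 0.14, adjusted p = 0.00886), but its direction turned when the libraries were clustered without integration (-1.03, adjusted p = 0.0274). In fibroblast-like cells Sfrp1 was higher in Fracture, at 9.96 and 11.1 CPM against 18.2 and 17.4 CPM (0.86, SE 0.17, adjusted p = 0.0358). This call was lost in DESeq2 (adjusted p = 0.0680), with libraries as samples, without Control preparation 1 and without either Fracture preparation. Sfrp2 in chondrocyte-like cells rose from 0.47 and 0.24 CPM to 2.11 and 2.12 CPM (2.57, SE 0.28, adjusted p = 0.00635), still below the highest blood level of 2.32 CPM. Cluster 3 held 203 of the 402 UMIs of the class in Fracture, at 8.82 and 8.99 CPM against 0.25 and 0.74 CPM (2 UMIs) in Control.

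A second reclustering took the other mesenchymal classes together and separated dpMSC-like cells (diaphyseal mesenchymal stromal cells, carrying Lepr, Cxcl12 and Adipoq) from mpMSC-like cells (metaphyseal, carrying Hey1, Mmp9, Mmp13 and Kcnk2 but not the listed marker Postn). The dpMSC-like cells made up 36.4% and 43.2% of the reclustered cells in Control and 10.5% and 10.6% in Fracture, and the mpMSC-like cells 18.9% and 17.5% in Control and 15.8% and 15.1% in Fracture. Sfrp1 went from 83.2 and 77.2 CPM to 11.7 and 10.7 CPM in mpMSC-like cells (log2 change -2.69, SE 0.11, adjusted p = 0.00160). It measured 178 and 134 CPM against 90.5 and 118 CPM in dpMSC-like cells (-0.33, adjusted p = 0.206). Sfrp2 fell in mpMSC-like cells from 19.8 and 18.8 CPM to 2.24 and 4.02 CPM (-2.45, SE 0.28, adjusted p = 0.00568). Sfrp2 in dpMSC-like cells rose from 30.9 and 37.4 CPM to 56.3 and 75.0 CPM (1.18, SE 0.20, adjusted p = 0.00625). Sfrp4 fell in dpMSC-like cells from 804 and 736 CPM to 98.5 and 156 CPM (-2.35, SE 0.25, adjusted p = 0.00168). It measured 178 and 172 CPM against 155 and 128 CPM in mpMSC-like cells (-0.15, adjusted p = 0.319). Whether the effect of fracture differed between the 2 subclasses was not tested.

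Wif1 was lower in fractured bone wherever its change passed the test. In chondrocyte-like cells it went from 285 and 239 CPM to 81.8 and 83.8 CPM (log2 change -1.51, SE 0.09, adjusted p = 0.00228). A Wif1 UMI was found in 17.8% and 13.4% of the thinned cells of Control and in 6.52% and 7.40% of those of Fracture. Cluster 3 held 7873 of the 11480 Wif1 UMIs of the class in Control and 4578 of 15758 in Fracture. Its level went from 1475 and 1406 CPM to 210 and 194 CPM (-2.71, SE 0.09, adjusted p = 0.000584). Prehypertrophic, hypertrophic, Serpina1-positive and cycling cells and cluster 0 measured 35.1 to 146 CPM in all preparations, and none of their changes passed the test. In BMSC-like cells Wif1 was lower in both Fracture preparations, 311 and 342 CPM against 869 and 491 CPM, but the change of -0.87 (SE 0.28, adjusted p = 0.0569) did not pass. The same held for osteoblast-like cells, with 119 and 105 CPM against 224 and 141 CPM (-0.77, SE 0.21, adjusted p = 0.0698). It held for fibroblast-like cells too, with 89.8 and 77.8 CPM against 561 and 190 CPM (-2.10, SE 0.53, adjusted p = 0.0591). Among the reclustered cells the mpMSC-like subclass fell from 1854 and 1307 CPM to 576 and 623 CPM (-1.24, SE 0.17, adjusted p = 0.00884). The dpMSC-like cells measured 98.6 and 86.2 CPM against 81.3 and 76.1 CPM (0.01, SE 0.10, adjusted p = 0.937), a change that was -0.23 when scaled by library size alone. Control preparation 1 had the higher Wif1 in each of the 4 mesenchymal classes, and it also had more Wif1 in blood cells, 13.9 CPM against 2.88 CPM in Control preparation 2.

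**Figure D3:**
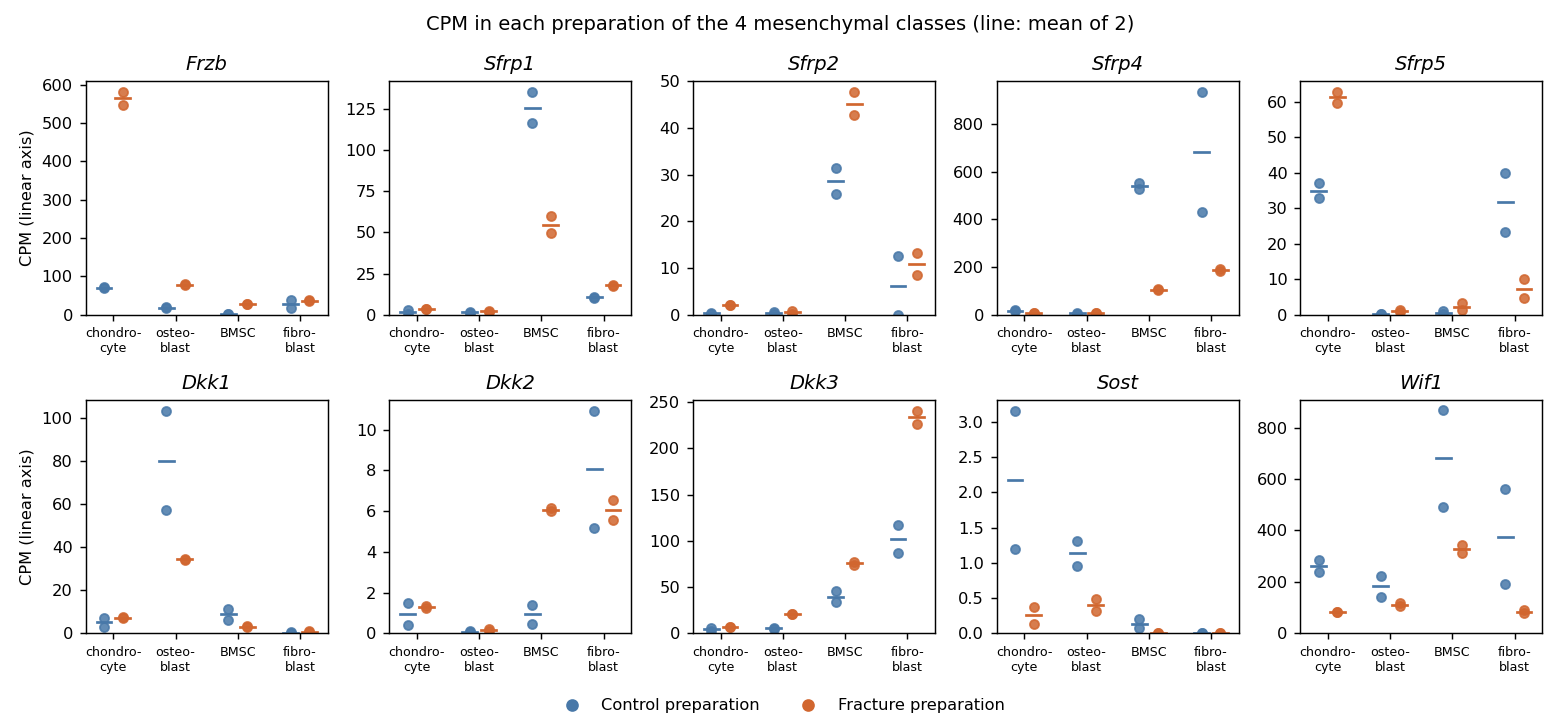
CPM of each gene (panels, each with its own linear axis from 0) in the chondrocyte-like, osteoblast-like, BMSC-like and fibroblast-like cells of each preparation, with a line at the mean of the 2 preparations of a group. The Fracture points of Frzb lie apart from Control in chondrocyte-like cells, and those of Sfrp4 lie below Control in BMSC-like cells (109 and 103 CPM against 526 and 551 CPM). The Control preparations of Wif1 and Sfrp4 are far apart in fibroblast-like cells.

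Dkk1, a ligand of LRP6 that blocks Wnt signalling in bone, was chiefly an osteoblast-like gene and was lower in fractured bone. It measured 103 and 56.9 CPM in the osteoblast-like cells of Control and 33.9 and 34.5 CPM in those of Fracture (log2 change -1.28, SE 0.27, adjusted p = 0.0399), with both Control preparations higher but unlike each other. The change ran from -1.63 to -0.84 over 13 alternatives. The highest level of any subclass was found in cluster 5 of the reclustered cells, which held 243 cells. That cluster carried 2 of the 6 listed osteoblast markers, Ibsp and Dmp1, but not Bglap, Bglap2, Col22a1 or Ifitm5, and was left unnamed. Dkk1 measured 555 and 612 CPM there in Control and 316 and 341 CPM in Fracture (-0.73, SE 0.15, adjusted p = 0.0779). Dkk1 was itself among the 10 leading genes of that cluster, although it had not been used to make it. In BMSC-like cells Dkk1 was lower as well, at 11.2 and 6.33 CPM against 3.31 and 2.75 CPM (-1.35, SE 0.34, adjusted p = 0.0285). The levels in Fracture lay below the highest blood level of that group, 4.35 CPM. At the finer clustering the change was 0.63 (adjusted p = 0.734). Chondrocyte-like cells measured 2.84 and 7.21 CPM in Control and 7.42 and 6.91 CPM in Fracture, where the groups overlapped (0.74, adjusted p = 0.257). Inside that class, prehypertrophic cells rose from 10.1 and 7.52 CPM to 14.9 and 13.6 CPM (0.65, SE 0.17, adjusted p = 0.0496). This call was lost without TMM scaling, without Control preparation 2 and without either Fracture preparation. Cluster 0 held 3 UMIs in Control (0.50 and 0.89 CPM) against 336 UMIs in Fracture (5.22 and 5.94 CPM).

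Sost, which is made by osteocytes embedded in bone, was rare in these libraries, with 150 UMIs in the stroma of Control and 75 in that of Fracture. At this depth Sost was not detected in fibroblast-like cells, where a count of 0 allows up to 0.67 CPM in Control and 0.17 CPM in Fracture. In chondrocyte-like cells it measured 1.20 and 3.16 CPM in Control and 0.14 and 0.37 CPM in Fracture (log2 change -2.75). Most of those UMIs belonged to hypertrophic cells, 71 of 75 in Control and 38 of 50 in Fracture. The level there went from 21.7 and 46.5 CPM to 0.63 and 2.10 CPM (-4.41). No test is given for Sost in chondrocyte-like or hypertrophic cells, where it met the count filter in both preparations of Control but not in both of Fracture. Cluster 5 of the reclustered cells had 15.1 and 14.2 CPM of Sost in Control and 16.3 and 7.66 CPM in Fracture (-0.27, SE 0.49, adjusted p = 0.8497). Osteoblast-like cells had 0.96 and 1.32 CPM against 0.49 and 0.32 CPM (-1.54, SE 0.39, adjusted p = 0.0593), where Sost also reached the count filter only through Control.

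Dkk2 marked endothelial-like cells. It measured 39.7 and 26.9 CPM there in Control and 43.2 and 46.7 CPM in Fracture (log2 change 0.56, SE 0.20, adjusted p = 0.0930). These cells held 76.0% and 92.0% of all stromal Dkk2 UMIs in Control and 67.5% and 69.2% in Fracture. Its level in BMSC-like cells was higher in Fracture, from 1.38 and 0.48 CPM to 6.01 and 6.13 CPM (2.84), above a blood level that did not exceed 0.72 CPM. No test is given here, since Dkk2 met the count filter in both preparations of Fracture but not in both of Control. The mpMSC-like cells held 2 Dkk2 UMIs in Control (0.15 and 0.23 CPM) and 61 in Fracture (6.50 and 6.43 CPM). The dpMSC-like cells measured 2.42 and 0.60 CPM against 5.23 and 2.31 CPM (adjusted p = 0.130), and the difference between the subclasses was not tested.

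Dkk3 was highest in fibroblast-like cells and rose there from 117 and 87.2 CPM to 227 and 241 CPM (log2 change 1.27, SE 0.19, adjusted p = 0.0201). Osteoblast-like cells went from 5.96 and 4.92 CPM to 20.6 and 20.5 CPM (1.85, SE 0.12, adjusted p = 0.00437). Endothelial-like cells went from 2.37 and 0.86 CPM to 7.58 and 6.89 CPM (2.26). No test is given for them, since Dkk3 met the count filter in both preparations of Fracture but not in both of Control. The chondrocyte markers were higher in the same cells of Fracture. The part of those markers in the change was not tested. Dkk3 in BMSC-like cells rose from 33.5 and 45.3 CPM to 74.0 and 77.0 CPM (1.13, SE 0.17, adjusted p = 0.00759). The dpMSC-like cells went from 45.9 and 56.5 CPM to 124 and 130 CPM (1.55, SE 0.14, adjusted p = 0.00112). The change of Dkk3 in mpMSC-like cells, from 16.9 and 22.5 CPM to 22.9 and 26.5 CPM, did not pass (0.49, SE 0.19, adjusted p = 0.116). Without integration the change in BMSC-like cells was -0.29 (adjusted p = 0.305). Chondrocyte-like cells measured 5.41 and 2.92 CPM against 6.88 and 6.65 CPM (0.80, adjusted p = 0.0850). In cluster 0 of that class Dkk3 went from 1.26 and 0 CPM, 5 UMIs in all, to 6.12 and 5.54 CPM. Prehypertrophic, hypertrophic and cycling cells each held 1 Dkk3 UMI in Control. In Fracture the prehypertrophic cells held 3.19 and 3.63 CPM, the hypertrophic cells 7.86 and 7.69 CPM and the cycling cells 7.11 and 7.12 CPM, beside a highest blood level of 3.42 CPM. No test is given for cluster 0 and these subclasses, where Dkk3 reached the count filter only through Fracture. Cluster 3, which had the most Dkk3 of the chondrocyte subclasses, measured 30.6 and 14.9 CPM against 16.5 and 16.4 CPM (-0.50, SE 0.26, adjusted p = 0.240).

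**Figure D4:**
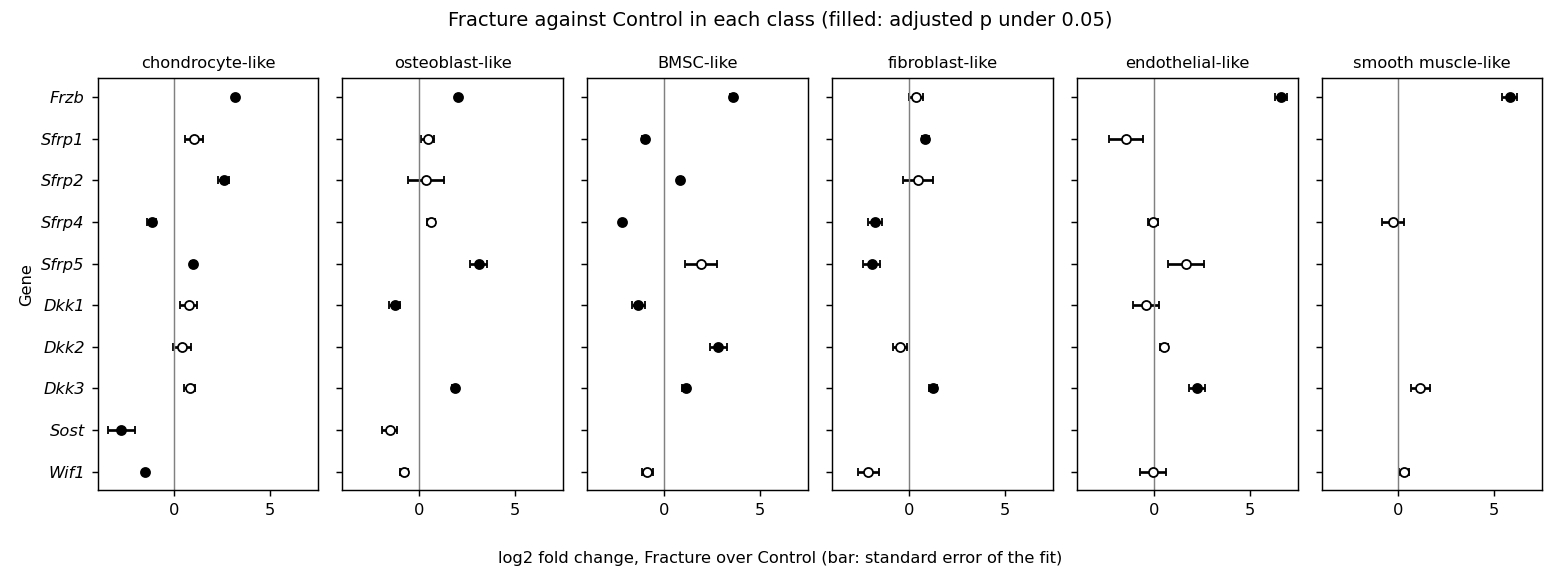
Change of each gene in each class as log2(Fracture over Control) with its standard error (bars), filled where the adjusted p is under 0.05. Frzb is filled and to the right of 0 in 5 of 6 classes. Sfrp4 is filled and to the left in chondrocyte-like, BMSC-like and fibroblast-like cells. Some filled genes, such as Frzb in endothelial-like and smooth muscle-like cells, reached the count filter through a single group. Genes without a point had too few counts for the test.

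**Figure D5:**
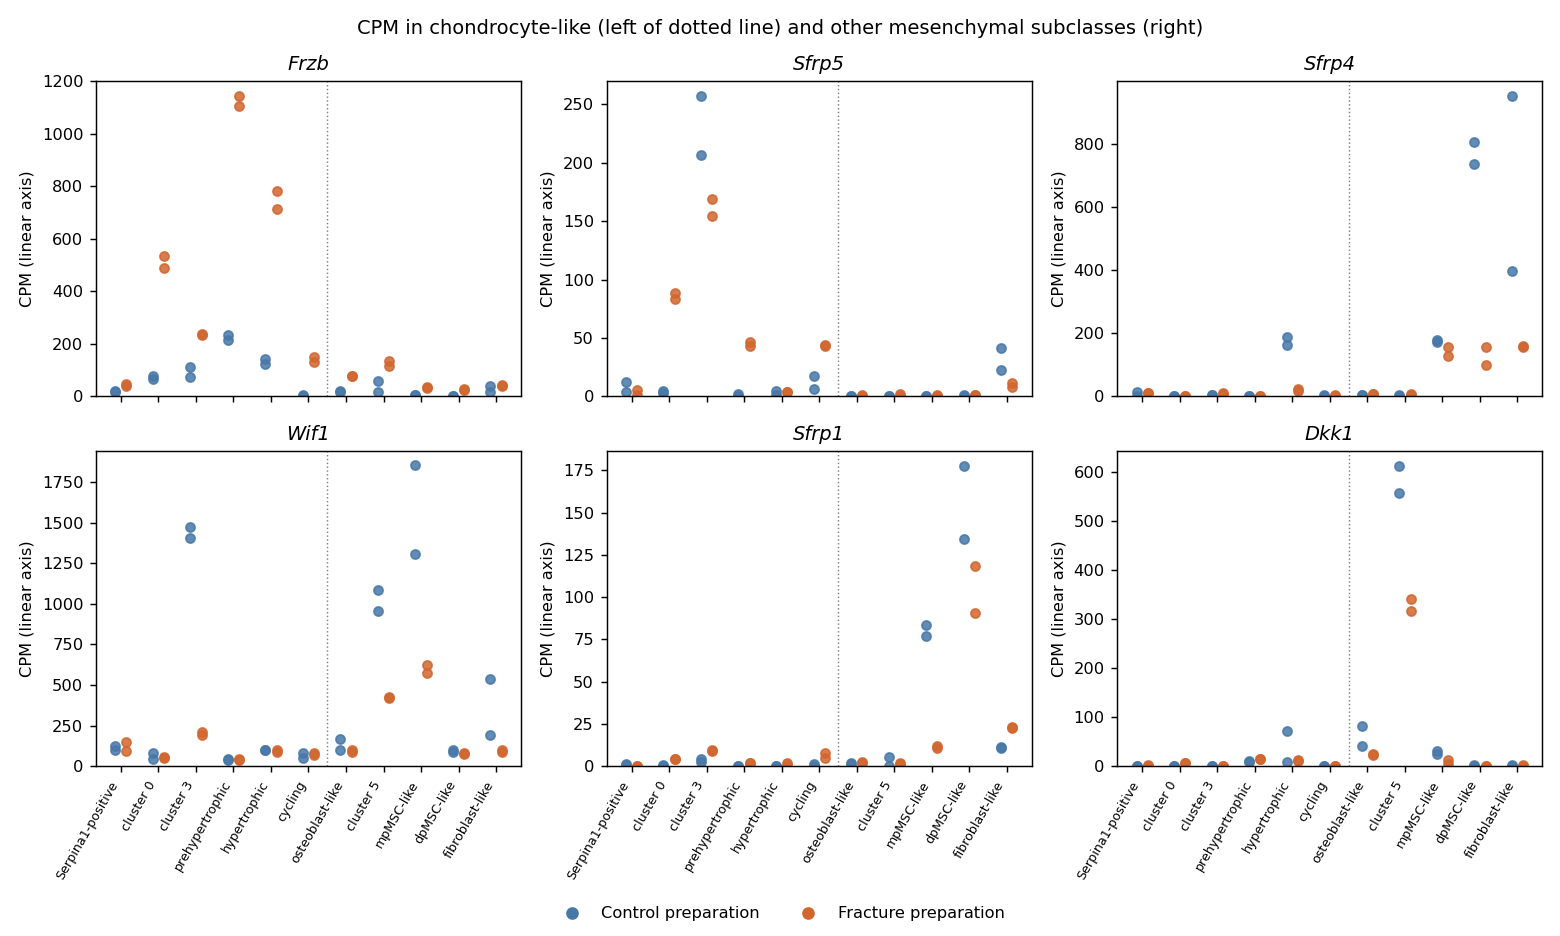
CPM of 6 genes in 6 subclasses of chondrocyte-like cells (left of the dotted line) and 5 subclasses of other mesenchymal cells (right), with 1 point for each preparation on a linear axis from 0. Wif1 is high in cluster 3 and in mpMSC-like cells of Control (1475 and 1406, 1854 and 1307 CPM), and Frzb is highest in prehypertrophic cells of Fracture (1144 and 1107 CPM).

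Counted over the 6 classes, 48 pairs of a gene and a class could be tested, and 24 passed, 15 of them with the higher level in Fracture. These counts are a description. Among the 24, Frzb and Dkk3 in endothelial-like cells and Frzb in smooth muscle-like cells reached the count filter only through Fracture. So did Sfrp5 in osteoblast-like and Dkk2 in BMSC-like cells, whereas Sost in chondrocyte-like cells reached it only through Control. In chondrocyte-like cells 6 of 10 genes passed, 3 higher and 3 lower, where 37.1% of all genes tested passed (19.1% higher and 18% lower). In osteoblast-like cells 4 of 9 passed, 3 higher and 1 lower, against 16.3% of all genes (9.61% higher and 6.64% lower). BMSC-like cells had 7 of 9, 4 higher and 3 lower, against 51.8% of all genes (25.7% higher and 26.1% lower). Fibroblast-like cells had 4 of 8, 2 in each direction, against 16% (8.13% higher and 7.87% lower). In endothelial-like cells 2 of 8 passed, both higher, against 36.1% of all genes (19.1% higher and 17.1% lower), and in smooth muscle-like cells 1 of 4, higher, against 24.8% (12.9% higher and 11.9% lower). The median log2 change of the antagonists tested was 0.77 in chondrocyte-like, 0.44 in osteoblast-like, 0.84 in BMSC-like and -0.05 in fibroblast-like cells. In the first 3 of these classes it includes genes that reached the count filter through a single group. The median of all genes was within 0.03 of 0 in each class. TMM scaling places it near 0, so that it is no measured background. With a single Fracture preparation left out, edgeR called 0 of all genes in chondrocyte-like, osteoblast-like, fibroblast-like and endothelial-like cells, although 1670 to 4605 had an unadjusted p under 0.05. The called changes of the 10 genes in these classes kept their direction, and that of Frzb in chondrocyte-like cells was 3.13 and 3.19.

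In the reclustered cells the genes tested and passed stood beside different shares of all genes. Among chondrocyte subclasses, 5 of 8 passed in cluster 0 (19.7% of all genes), 5 of 7 in prehypertrophic cells (22%), and 4 of 7 in hypertrophic cells (6.96%). The counts were 4 of 7 in cycling cells (9.94%), 4 of 8 in cluster 3 (18.1%), 3 of 8 in cluster 6 (9.07%) and 1 of 5 in Serpina1-positive cells (7.79%). Of the other subclasses, mpMSC-like cells had 5 of 8 (28.5%), dpMSC-like cells 4 of 7 (54.4%), osteoblast-like cells 4 of 7 (15.6%), fibroblast-like cells 3 of 9 (13.3%) and cluster 5 had 1 of 4 (1.46%). These counts are a description, since some genes reached the count filter only through Fracture or, as Sost in hypertrophic cells, only through Control. In cluster 0 Sfrp1 had 2 UMIs in Control and 248 in Fracture. Dkk3 had 1 UMI in the prehypertrophic cells of Control and 137 UMIs in those of Fracture.

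In the stroma as a whole, in which the makeup of the tissue counts as well, 8 of 10 genes passed, 3 higher and 5 lower, beside 39.6% of all genes (18.6% higher and 21.1% lower). Frzb went from 31.3 and 23.7 CPM to 397 and 371 CPM (log2 change 4.01, SE 0.19, adjusted p = 0.00331). Sfrp5 went from 13.7 and 8.29 CPM to 41.8 and 39.8 CPM (2.09, SE 0.28, adjusted p = 0.0112), and Dkk3 from 14.1 and 14.9 CPM to 26.2 and 28.1 CPM (1.11, SE 0.08, adjusted p = 0.00434). Sfrp4, Wif1, Sfrp1, Dkk1 and Sost were lower. Sfrp4 fell from 110 and 153 CPM to 25.6 and 24.99 CPM (-2.17, SE 0.16, adjusted p = 0.00468) and Wif1 from 336 and 220 CPM to 98.8 and 98.7 CPM (-1.29, SE 0.24, adjusted p = 0.0206). Chondrocyte-like cells grew from 22.6% and 13.6% of stromal cells in Control to 58.9% and 57.4% in Fracture. When the Fracture levels of each class were weighted by the UMI makeup of the 2 Control preparations, the stroma would hold 206 and 195 CPM of Frzb, between the measured means of 27.5 CPM in Control and 384 CPM in Fracture. For Sfrp5 that value was 19.2 and 18.6 CPM (measured 10.98 and 40.8 CPM). For Wif1 it was 131 and 132 CPM (measured 278 and 98.8 CPM), and for Sfrp4 33.2 and 31.9 CPM (measured 132 and 25.3 CPM). Weighted the other way, the Control levels at the UMI makeup of Fracture gave 50.9 and 48.9 CPM of Frzb and 25.8 and 23.4 CPM of Sfrp5. They gave 312 and 219 CPM of Wif1 and 74.5 and 109 CPM of Sfrp4.

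The share of the classes in the stromal UMIs of an antagonist differed between the groups for several genes, in which makeup and level both count. Chondrocyte-like cells held 74.4% and 65.2% of the stromal Frzb UMIs in Control and 94.3% and 93.9% in Fracture. BMSC-like cells held 78.6% and 80.3% of Sfrp4 UMIs in Control and 30.8% and 29.1% in Fracture, when fibroblast-like cells held 41.7% and 45.4%. For Sfrp1 the share of BMSC-like cells went from 89.2% and 96.3% to 49.2% and 52.4%. Sfrp5 stayed mainly in chondrocyte-like cells, with 88.3% and 87.1% in Control and 96.9% and 95.5% in Fracture. For Dkk1 the share of osteoblast-like cells went from 90.7% and 86.7% to 46.4% and 49.1%, with 48.9% and 45.8% in chondrocyte-like cells of Fracture. Summed over all 10 genes, antagonist RNA made up 580 and 483 CPM of the stroma in Control and 618 and 592 CPM in Fracture. It made up 1607 and 1244 CPM of the BMSC-like cells in Control against 631 and 664 CPM in Fracture, and 1204 and 1284 CPM against 586 and 584 CPM of the fibroblast-like cells. The sum was higher in Fracture in chondrocyte-like cells, at 423 and 378 CPM against 754 and 719 CPM. It was also higher in endothelial-like cells, at 123 and 50.1 CPM against 189 CPM in both. The same held for smooth muscle-like cells, at 69.5 and 25.3 CPM against 136 and 125 CPM. Frzb alone went from 71.6 and 70.3 CPM to 581 and 548 CPM in chondrocyte-like cells. In the stroma it went from 31.3 and 23.7 CPM to 397 and 371 CPM. In both, the other genes together were lower in Fracture. Endothelial-like cells went from 1.24 and 0.61 CPM to 86.4 and 86.7 CPM of Frzb, and smooth muscle-like cells from 1.05 and 0.79 CPM to 68.3 and 44.3 CPM. In osteoblast-like cells the sum measured 362 and 229 CPM against 267 and 251 CPM, which overlapped. These sums were not tested.

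Whether the effect of fracture differed between the chondrocyte-like, osteoblast-like, BMSC-like and fibroblast-like cells was tested with a class-by-group term, which passed for 23 of 60 pairs of a gene and a pair of classes. The counts were 4 of 10 genes for chondrocyte-like against osteoblast-like cells (21.3% of all genes), 4 against BMSC-like cells (44.8%) and 2 against fibroblast-like cells (19.5%). They were 4 for osteoblast-like against BMSC-like (35.3%), 4 for osteoblast-like against fibroblast-like (17.5%) and 5 for BMSC-like against fibroblast-like cells (26%). These counts are a description, since some rest on changes given no test above, as Dkk2 in BMSC-like or Sfrp5 in osteoblast-like cells. The rise of Frzb was larger in chondrocyte-like than in osteoblast-like cells by 1.09 on the log2 scale (SE 0.18, adjusted p = 0.000791). It was larger than in fibroblast-like cells by 2.75 (SE 0.26, adjusted p = 1.03e-05). For Sfrp4 the change in osteoblast-like cells exceeded that in BMSC-like cells by 2.75 (SE 0.36, adjusted p = 8.81e-05). The osteoblast-like levels of Sfrp4 lay below the highest blood levels (28.1 CPM in Control, 12.5 CPM in Fracture). Its change there was not called in the edgeR fit (0.61, adjusted p = 0.127). For Dkk1 the change in chondrocyte-like cells exceeded that in osteoblast-like cells by 2.16 (SE 0.41, adjusted p = 0.00197). The log2 change of Sfrp1 was lower in BMSC-like than in fibroblast-like cells, by a difference of -2.03 (SE 0.34, adjusted p = 0.000788).

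The other genes of the Wnt pathway were counted by role from a list of 70 genes, 68 of which were in the tables. In chondrocyte-like cells 59 could be tested, of which 21 rose and 10 fell (52.5%, beside 37.1% of all genes), and of 17 receptors 9 rose and 1 fell, beside 19.1% of all genes higher and 18% lower. Lrp4, a receptor that anchors sclerostin, went from 28.7 and 29.8 CPM to 90.7 and 93.2 CPM (log2 change 1.80, adjusted p = 0.00106). Wnt16, a ligand, went from 0.20 and 0.08 CPM (7 UMIs) to 6.95 and 7.21 CPM (1348 UMIs). No test is given for Wnt16, which reached the count filter only through Fracture. Of 11 target or feedback genes 1 rose and 4 fell in these cells (45.5%, beside 37.1% of all genes). In BMSC-like cells 6 rose and 1 fell (63.6%, beside 51.8%), in osteoblast-like cells 4 rose and 1 fell (45.5%, beside 16.3%), and in endothelial-like cells 5 of 10 rose (50%, beside 36.1%). Whether these counts differ between classes was not tested. In chondrocyte-like cells Notum, an enzyme that inactivates Wnt ligands, fell from 74.0 and 68.2 CPM to 25.2 and 24.3 CPM (-1.37, adjusted p = 0.00136). Tnfrsf11b, the decoy receptor osteoprotegerin, fell in the same class from 156 and 155 CPM to 44.9 and 42.9 CPM (-1.67, adjusted p = 0.000985). Rspo4, a secreted enhancer of Wnt signalling, fell there from 75.1 and 80.5 CPM to 12.98 and 10.8 CPM (-2.56, adjusted p = 0.00135).

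In BMSC-like cells 19 of 56 pathway genes rose and 16 fell (62.5%, beside 51.8% of all genes), with 6 ligands higher and 1 lower of 10, and 5 receptors higher and 8 lower of 16, beside 25.7% of all genes higher and 26.1% lower. Rspo2, another of the enhancers, fell from 115 and 117 CPM to 13.8 and 14.3 CPM (log2 change -2.85, adjusted p = 0.00108). Fzd4, a Frizzled receptor, fell from 10.5 and 9.77 CPM to 1.80 and 1.42 CPM (-2.47, adjusted p = 0.00235). Tnfrsf11b rose in BMSC-like cells from 10.7 and 4.01 CPM to 33.0 and 31.4 CPM (2.31, adjusted p = 0.0153), and Ccnd1, a cyclin and target of the pathway, from 50.9 and 30.7 CPM to 133 and 113 CPM (1.78, adjusted p = 0.00690). Notum rose in osteoblast-like cells from 14.6 and 10.1 CPM to 29.5 and 25.9 CPM (1.10, adjusted p = 0.0224), where 15 of 53 pathway genes rose and 5 fell (37.7%, beside 16.3%). Fibroblast-like cells had 8 of 56 higher and 8 lower (28.6%, beside 16%). Wisp1, a target of beta-catenin, rose there from 25.1 and 25.9 CPM to 105 and 106 CPM (2.13, adjusted p = 0.00404), and Tnfrsf11b fell from 806 and 582 CPM to 99.5 and 99.8 CPM (-2.72, adjusted p = 0.00624). Endothelial-like cells had 20 of 54 higher and 7 lower (50%, beside 36.1%) and smooth muscle-like cells 5 of 39 higher and 6 lower (28.2%, beside 24.8%). Of the intracellular members of the pathway, the transcription factor Tcf7l1 went from 15.4 and 15.3 CPM to 30.3 and 31.0 CPM in chondrocyte-like cells (1.15, adjusted p = 0.00182). It went from 59.4 and 67.2 CPM to 24.4 and 26.5 CPM in BMSC-like cells (-1.13, adjusted p = 0.00326).

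The genes most like each antagonist were sought by Pearson correlation of log2(CPM + 1) over 24 sums, the 6 stromal classes in 4 preparations, among 10480 genes. These points share libraries and depth, so that r is a description. Frzb went most closely with Loxl4 (r = 0.963), a lysyl oxidase that was also among the leading genes of prehypertrophic cells, and Sfrp5 with Scin (r = 0.957). Sfrp4 was nearest to Ltbp2 (r = 0.957) and Scara5 (r = 0.944), Dkk3 to Emp3 (r = 0.936) and Vcan (r = 0.926). Dkk1 was nearest to Phex (r = 0.926), a phosphate-regulating gene of osteoblasts and osteocytes. Wif1 was nearest to Mab21l2 (r = 0.913) and Fgfr2 (r = 0.913), Sfrp1 to Galk2 (r = 0.935) and Ndnf (r = 0.932), Sfrp2 to Ccbe1 (r = 0.917) and Dkk2 to Fkbp1a (r = 0.932). Among the antagonists themselves, Sfrp1 went with Sfrp2 (r = 0.864) and Sfrp4 (r = 0.826), Sfrp4 with Dkk3 (r = 0.785) and Frzb with Sfrp5 (r = 0.649). Sost stayed under 10 CPM in every class and was left out.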

How the data were processed

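Single-cell libraries of 8 samples were used. Their numbered titles were read as 2 libraries from each of 4 preparations (2 Control, 2 Fracture), a word the titles do not use. The authors deposited raw UMI counts per gene and barcode, not normalised. Per the labels, bcl2fastq 2.19.1.403, UMI-tools 1.0.0, STAR 2.7.3a and featureCounts 1.6.4 (Subread) were used with mm10, whereas the study's methods name STARsolo for counting in its single-cell data. Which of them made these tables was not settled here, and a strand setting is not given in the sources used here.

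Cells with 500 to 6000 genes and at most 25% mitochondrial UMIs were kept, and genes in at least 3 cells. Libraries were integrated and clustered in Seurat 5.3.0 (12 components, resolution 0.1), leaving out of the variable genes the 10 antagonists, the Wnt lists and cell cycle genes. Chondrocyte-like cells were reclustered at resolution 0.2, and the other 3 mesenchymal classes together at 0.08, with 13 components. Scrublet (scanpy 1.11.5) called 722 doublets (1.59%), which were kept.

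Counts were summed per class and preparation, with at least 20 cells in each, and fitted over all genes in edgeR 4.0.16 (TMM, filterByExpr, quasi-likelihood test, Benjamini-Hochberg adjustment, call at adjusted p under 0.05). The count filter asks for its cutoff in at least 2 preparations, so that a gene can pass it through a single group. Differences between classes were fitted with the preparation as a block. The SE is the absolute log2 change over the square root of F. TMM moved log2 changes by -0.07 to 0.24 against library-size scaling, and the CPM printed carry no TMM factor. Shares of cells used cells thinned to 1000 UMIs. Confidence limits from a count of 0 use 3 counts and cover counting error only. On simulated counts, 4-fold changes were recovered in 83.8% (osteoblast-like) to 95.9% (endothelial-like) and 2-fold changes in 10.4% to 26.0% of genes. The simulation changed only a small part of the genes and drew them at the fitted trend of dispersion. In the data 16% to 51.8% of genes were called, so that these rates do not carry over to the fits. Python 3.11.15 and R 4.3.3 were used.

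All 10 antagonists were reported, with the 3 genes most correlated with each (those nearest are named) and, for each Wnt role and mesenchymal class, the 2 called genes with the largest change and no overlap between groups (some are named). The genes, markers and lists were chosen with earlier results of these data known. Alternatives were other scaling, DESeq2 1.42.0, no count filter, libraries as samples, a replicate block, each preparation left out, deeper cells, doublets removed, no integration and a finer clustering.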

Additional observations from a re-analysis of the deposited data

Results flagged for a closer look

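The effect of fracture on a gene differed between 2 mesenchymal classes, by the class-by-group term of the edgeR fit, in 23 cases. Each value is the log2 change in the first class less that in the second. Frzb differed by 1.09 between chondrocyte-like and osteoblast-like cells, by 2.75 between chondrocyte-like and fibroblast-like, by -1.53 between osteoblast-like and BMSC-like, by 1.66 between osteoblast-like and fibroblast-like and by 3.19 between BMSC-like and fibroblast-like cells. Sfrp5 differed from fibroblast-like cells by 2.71 in chondrocyte-like, 4.90 in osteoblast-like and 3.62 in BMSC-like cells, where the osteoblast-like and the BMSC-like levels of Fracture were below the highest level of blood cells. The change of Sfrp5 in BMSC-like cells was not called and ran from -2.36 to 3.90 over the alternatives. Its osteoblast-like change was given no test above, since the count filter was reached there only through Fracture. The BMSC-like level of Frzb in Fracture was also below the highest level of blood cells.

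Sfrp1 differed by 2.02 between chondrocyte-like and BMSC-like, by 1.48 between osteoblast-like and BMSC-like and by -2.03 between BMSC-like and fibroblast-like cells. Sfrp4 differed by -1.73 between chondrocyte-like and osteoblast-like, by 1.02 between chondrocyte-like and BMSC-like, by 2.75 between osteoblast-like and BMSC-like and by 2.18 between osteoblast-like and fibroblast-like cells. The chondrocyte-like and osteoblast-like levels of both Sfrp1 and Sfrp4 were below the highest level of blood cells in the same group. Wif1 differed from fibroblast-like cells by 1.22 in osteoblast-like and by 1.10 in BMSC-like cells.

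Dkk1 differed by 2.16 between chondrocyte-like and osteoblast-like and by 2.29 between chondrocyte-like and BMSC-like cells. The BMSC-like level of Dkk1 in Fracture was below the highest level of blood cells. Dkk2 differed by -2.31 between chondrocyte-like and BMSC-like and by 3.09 between BMSC-like and fibroblast-like cells, and Dkk3 by -1.13 between chondrocyte-like and osteoblast-like and by 0.75 between osteoblast-like and BMSC-like cells. The BMSC-like change of Dkk2, on which both of its differences rest, was given no test above.

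In erythroid-like cells, which were outside the comparisons, 3 antagonists with at least 10 UMIs in Fracture lay above both Control preparations in both Fracture preparations. Sfrp2 and Sfrp5 did so as well on 6 and 7 UMIs in Fracture. The mean in Fracture was 22.2 CPM for Frzb, 2.90 CPM for Dkk3 and 24.2 CPM for Wif1. The 10 chondrocyte markers summed there to 549 and 133 CPM in Control and 4163 and 3867 CPM in Fracture. Their part in these levels was not tested.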

How the results depend on the processing

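Of 75 changes that passed the test, 628 of 769 recomputed values kept direction and call, 138 kept direction and lost the call and 3 turned. Those 3 are in BMSC-like cells, Sfrp2 (-1.03) and Dkk3 (-0.29) without integration and Dkk1 (0.63) at the finer clustering. Of 683 values for the 68 changes that had not passed, 109 gained the call and 59 changed sign. Frzb in fibroblast-like cells turned and passed without integration (-0.83), and Wif1 in endothelial-like cells ran from -0.74 to 1.42 when a preparation was left out and passed at both ends. Of the differences between classes that passed, 182 of 207 values kept the call and none turned. Of 333 values for those that had not, 42 gained the call and 31 changed sign. Sfrp5 (3.31) and Dkk3 (1.26) in chondrocyte-like less BMSC-like, Wif1 in osteoblast-like less BMSC-like (-0.88) and Sfrp2 in BMSC-like less fibroblast-like cells (-2.98) turned without integration, and so did, without Control preparation 1, Wif1 in chondrocyte-like less fibroblast-like cells (from -0.44 to 0.99 as each preparation was left out) and Sfrp2 in BMSC-like less fibroblast-like cells (from -10.27 to 1.07). The cause was not tested.

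Leaving out each preparation gave these counts of antagonists passing: chondrocyte-like 0 to 9, osteoblast-like 0 to 7, BMSC-like 3 to 9, fibroblast-like 0 to 6, endothelial-like 0 to 7, smooth muscle-like 0 to 3 and stroma 3 to 9. In the reclustered cells they were 0 to 3 (Serpina1-positive), 2 to 7 (cluster 0), 1 to 6 (cluster 3), 1 to 4 (cluster 6), 1 to 5 (cycling), 2 to 4 (prehypertrophic), 2 to 7 (mpMSC-like), 0 to 6 (osteoblast-like), 0 to 7 (fibroblast-like) and 0 to 3 (cluster 5). For differences between classes they were 1 to 6 (chondrocyte-like and osteoblast-like), 2 to 7 (chondrocyte-like and BMSC-like), 2 to 5 (chondrocyte-like and fibroblast-like), 2 to 4 (osteoblast-like and BMSC-like), 2 to 5 (osteoblast-like and fibroblast-like) and 3 to 7 (BMSC-like and fibroblast-like). A group left with 1 preparation is assumed to vary like the other. The lowest counts came from leaving out a Fracture preparation.

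Preparation numbers did not pair the samples (correlation of deviations 0.010 to 0.056). With a replicate block 2 antagonists passed in osteoblast-like cells, 1 in fibroblast-like, 0 in Serpina1-positive, 0 in cluster 6, 1 in reclustered fibroblast-like, 2 in reclustered osteoblast-like and 3 in prehypertrophic cells. In classes the block lost the calls of Sfrp4 in chondrocyte-like, Sfrp5 and Dkk1 in osteoblast-like and Sfrp1, Sfrp4 and Dkk3 in fibroblast-like cells. In reclustered cells it lost Frzb in Serpina1-positive cells and cluster 6, Sfrp4 and Wif1 in cluster 6, Sfrp1 in cluster 3, Sfrp2 in cycling, Sfrp1 and Dkk1 in prehypertrophic and Dkk3 in hypertrophic cells, Sfrp1, Sfrp4 and Dkk3 in fibroblast-like and Sfrp5 and Dkk1 in osteoblast-like cells. Of all genes it called 4104 in place of 6424 in chondrocyte-like, 1143 of 2238 in osteoblast-like, 475 of 2008 in fibroblast-like and 1635 of 2627 in smooth muscle-like cells. Without a count filter 3 passed in smooth muscle-like, 6 in reclustered fibroblast-like and 3 in cluster 5, and 7 and 6 differences of chondrocyte-like from osteoblast-like and fibroblast-like cells. In smooth muscle-like cells 2 passed with libraries as samples and 2 with doublets removed. Without integration 7 differences of chondrocyte-like from BMSC-like and 5 from fibroblast-like cells passed, and 3993 of all genes in place of 7624 in BMSC-like cells. Libraries as samples called 4918 genes in osteoblast-like and 3780 in fibroblast-like cells, where no filter called 3687. Cluster 6 held too few cells for the runs with deeper cells or without doublets.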
